A study of Mus musculus with 24 samples.

Results

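The levels of 9 mouse genes of mitophagy, the removal of mitochondria by autophagy, were followed in oligodendrocytes (OLs, the myelin-forming cells of the spinal cord) and in whole spinal cord tissue after contusive spinal cord injury (SCI). The genes were Usp30, Pink1, Optn, Sqstm1, Tax1bp1, Bnip3, Bnip3l, Fundc1 and Mfn2. They are 9 of the 21965 genes in the count table, and all 9 were among the 17167 genes tested. Usp30 was chosen because its fall in OLs on day 2 was among the sharpest of all genes in these libraries, and the other 8 because of their known part in mitophagy. The OL values of dpi 2 against naive tissue therefore chose Usp30 and are given for the 9 genes as a description, with no test.

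All mice carried an inducible Cre and 1 knock-in allele (Rpl22 fl(STOP)fl-HA/wt on a C57Bl/6 background). Per the study's methods all had received tamoxifen, naive mice included, and the injured ones had received it before surgery. Tamoxifen switches on an HA-tagged ribosomal protein, RPL22-HA, in the cells in which the Cre is active, so "OL RNA" means RNA on tagged ribosomes of those cells, of which not every mature OL carries the tag and a small share of other cells does. The 4 conditions were naive, and 2, 10 and 42 days post-injury (dpi) after a T9 contusion of 50 kdyn in female mice, aged 10 to 12 weeks per the labels while the methods give a younger age. Per the study, naive tissue was taken on the same day and at the same age as that of dpi 42, and as long after the start of tamoxifen. The naive mice were thus not matched in age or in time since tamoxifen to those of dpi 2 and dpi 10. Age, time since tamoxifen and injury cannot be told apart there. Naive mice were uninjured, and no sham surgery is described. Laminectomy, its anesthesia and the drugs given after surgery cannot be told apart from the contusion at any time. Tissue of 2 mice was pooled, with 3 pools a condition, and from every pool came an input library (total RNA) and an anti-HA immunoprecipitate library (OL RNA), which makes 24 libraries in 8 groups of n = 3. For dpi 42, the title and description of 2 samples name opposite kinds of RNA, and their libraries were placed by the names of their columns in the table.

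In the best known route of mitophagy, the kinase PINK1 builds up on damaged mitochondria and, with the ubiquitin ligase Parkin, coats their outer membrane with ubiquitin chains. Adaptor proteins such as optineurin, p62 and TAX1BP1 bind that ubiquitin and link it to the autophagosome, while receptors in the outer membrane such as BNIP3, NIX and FUNDC1 bind the autophagosome without it. USP30 is a deubiquitinase anchored in the outer membrane that takes ubiquitin off again and so works against this route. Mature OLs make myelin and maintain it over a long life.

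Libraries held 25840127 to 29050061 counts for total RNA and 29075211 to 32987841 for OL RNA. All 13 OL markers were enriched in OL RNA over total RNA in each condition (median log2 fold change 2.62 to 2.92), and all 10 markers of microglia and macrophages were depleted. The summed level of the 10 microglia and macrophage markers in OL libraries nonetheless rose from 18.7 to 25.6 CPM (counts relative to library size, scaled with TMM, the trimmed mean of M-values) in naive tissue to 80.3 to 98.7 on dpi 2, 238 to 267 on dpi 10 and 145 to 244 on dpi 42. In total RNA the same sum ran from 211 to 250 in naive tissue, 1309 to 1554 on dpi 2, 3472 to 4746 on dpi 10 and 2013 to 3006 on dpi 42. The 6 neuron markers summed to 9521 to 10208 CPM in naive total RNA and to 3806 to 5086, 4134 to 4561 and 5019 to 8141 at the 3 times after SCI. Among the naive OL libraries that of pool 3 stood apart. It held 8448 CPM of 6 astrocyte markers and 634 CPM of 3 Schwann cell markers, against 1297 to 1455 and 1.48 to 1.60 in the others. The total RNA of that pool held 174 CPM of the Schwann cell markers, against 2.69 and 1.84 in naive pools 1 and 2. After SCI the OL libraries held 206 to 656, 851 to 1516 and 1194 to 1388 CPM of the Schwann cell markers on dpi 2, 10 and 42. Of the astrocyte markers they held 945 to 7676, 2040 to 6259 and 1915 to 12188 CPM. High astrocyte sums were in the OL libraries of dpi 2 pool 3 (7676), dpi 10 pool 2 (6259) and dpi 42 pools 1 and 2 (12188 and 10204.5). Those of dpi 42 were above the total RNA of the same pools (6533 and 7809). Both libraries of dpi 2 pool 2 carried 2414 to 2604 counts of Y-linked genes, against 0 to 13 in the other 22, so that pool does not match its label of female mice. No marker of these lists was at 0 in a whole group. The part of these markers in the results below was not tested.

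Usp30 (ENSMUSG00000029592) lies on the plus strand of chromosome 5, at 114065461 to 114124720 of GRCm38, and has 6064 bases of exon sequence. Bnip3 (ENSMUSG00000078566) lies on the minus strand of chromosome 7, at 138890836 to 138909519, with 2265 bases. The promoter windows of these genes are shown because Usp30 had the deepest OL fall of the 9 genes and Bnip3 had the largest tested difference between its OL and total RNA changes. Each window runs from 250 bases before to 50 bases after the RefSeq transcription start (GRCm38.p6), 5′ to 3′ on the strand of the gene, at chr5:114100083-114100382 for Usp30 and chr7:138909457-138909756 for Bnip3. Capitals mark matches, on either strand, to the core of the hypoxia response element (ACGTG or GCGTG, and their complements CACGT and CACGC) or to the E-box CACGTG.
Usp30: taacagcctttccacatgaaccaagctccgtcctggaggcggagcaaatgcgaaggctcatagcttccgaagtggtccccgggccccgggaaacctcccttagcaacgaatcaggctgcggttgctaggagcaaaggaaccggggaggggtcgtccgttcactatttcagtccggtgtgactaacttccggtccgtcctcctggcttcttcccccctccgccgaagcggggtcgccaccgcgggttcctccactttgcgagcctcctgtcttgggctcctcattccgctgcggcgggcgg
Bnip3: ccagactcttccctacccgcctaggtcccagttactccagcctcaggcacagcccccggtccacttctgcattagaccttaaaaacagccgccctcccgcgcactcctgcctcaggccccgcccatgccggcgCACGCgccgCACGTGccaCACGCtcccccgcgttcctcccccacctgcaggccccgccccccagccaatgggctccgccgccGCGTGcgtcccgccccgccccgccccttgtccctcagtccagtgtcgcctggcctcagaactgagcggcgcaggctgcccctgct

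The Usp30 window held none of these letters, and neither did those of Fundc1 and Sqstm1. That Usp30 window lies inside the span of the gene given above, and sequence at the start of that span was not searched. The Bnip3 window held 1 CACGTG at position -108 from the start, which contains ACGTG on both strands, and GCGTG at -117, -99 and -35. Over 32851 RefSeq promoter windows of the same length, 19.6% held ACGTG, 32.4% GCGTG and 7.15% CACGTG. Pink1 held GCGTG at -47 and Optn at -23, -8 and 7, where the last lies after the start, and windows of Tax1bp1 and Mfn2 held GCGTG and, in some of their alternative starts, ACGTG. The CLEAR motif, a longer E-box found in 0.326% of windows that is known from lysosomal and autophagy genes, and the FOXO motif GTAAACA, found in 3.65%, were in none of the windows of the 9 genes that were matched. Bnip3l had no entry.

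In the annotation, exons of Usp30 overlap those of Svop by 161 bases (2.66% of its exon sequence) and those of Alkbh2 by 329 bases (5.43%), both on the opposite strand. Whether reads were counted by strand is not given in the sources used here. Svop, a synaptic vesicle gene, was at 105 to 118 CPM in naive total RNA but at 3.14 to 8.32 CPM in every OL library, and Alkbh2 at 0 to 6.29 CPM in every library. Reads of either gene were few beside those of Usp30 in OL RNA. In total RNA Svop fell on dpi 2 (log2 fold change -0.93 ± 0.21, standard error throughout, q = 0.0012), and its part in the total RNA values of Usp30 was not tested. Exons of Bnip3 overlap an antisense gene, Gm45507, over 504 bases (22.3%), and those of Sqstm1 overlap Mrnip over 580 bases (17.3%), with Mrnip at 5.25 to 12.2 CPM in every library.

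Usp30 RNA was at 198, 222 and 185 CPM in the 3 naive OL libraries and at 55.4, 41.1 and 38.6 CPM in those of dpi 2. It was back at 176, 140.4 and 156 CPM on dpi 10 and at 144, 133 and 139.9 CPM on dpi 42. All dpi 2 OL libraries thus lay under every other OL library, and those of dpi 10 and dpi 42 lay under the naive ones. Relative to naive OLs the level fell 4.48-fold on dpi 2 (log2 fold change -2.16 ± 0.12), and it stood 0.35 and 0.54 log2 units below naive on dpi 10 and dpi 42 (log2 fold changes -0.35 ± 0.11 and -0.54 ± 0.11). In bulk tissue, fewer OLs of a kind and less RNA per OL cannot be told apart. Without either library of the pool with Y-linked counts the dpi 2 value was -2.10, and without the naive OL library rich in astrocyte and Schwann cell markers it was -2.28.

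Among all genes that fell in OL RNA on dpi 2, Usp30 had the smallest unadjusted p, just ahead of Prickle1, Clmn, Tmem132b, Fnbp1 and Arnt2, whose log2 fold changes were -2.14, -2.40, -2.20, -1.76 and -1.52. Among the 49 tested genes of the ubiquitin-specific protease (USP) family it was the lowest, followed by Usp9x at -1.85, with a family median of -0.26. These ranks use the values that chose the gene.

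In total RNA, which the choice did not use, Usp30 was at 55.5, 56.8 and 57.2 CPM in naive tissue and at 29.4, 32.3 and 30.8 CPM on dpi 2. No dpi 2 library overlapped the naive range. The fall was 1.83-fold (log2 fold change -0.87 ± 0.11, q = 3.4e-06), and it was called in all 34 alternative settings, between -0.91 and -0.65. On dpi 10 the libraries were at 48.3, 48.6 and 49.3 CPM and on dpi 42 at 51.7, 53.3 and 56.3 CPM, and neither time passed the test (q = 0.16 and 0.72). Within the USP family the dpi 2 fall in total RNA ranked 11th of 49.

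Usp30 was an OL-enriched gene in the libraries that did not choose it. OL RNA held 3.24 times the level of total RNA on dpi 10 (log2 1.69 ± 0.11, q = 7.3e-11) and 2.58 times on dpi 42 (log2 1.37 ± 0.11, q = 1.6e-09). In naive tissue the ratio was log2 1.83 and on dpi 2 it was log2 0.55, which are descriptions. OL levels of dpi 42 and dpi 10 overlapped and did not differ by the test (log2 fold change -0.18, normal 95% interval -0.40 to 0.03, q = 0.33). The order of the 8 groups by mean level was naive OL (202 ± 19.02 CPM, SD), dpi 10 OL (158 ± 18.03), dpi 42 OL (139 ± 5.78), naive total (56.5 ± 0.92), dpi 42 total (53.8 ± 2.33), dpi 10 total (48.7 ± 0.48), dpi 2 OL (45.0 ± 9.11) and dpi 2 total (30.9 ± 1.44). Of these neighbours, dpi 10 and dpi 42 OL, naive and dpi 42 total, and dpi 10 total and dpi 2 OL overlapped in their libraries.

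**Figure D1:**
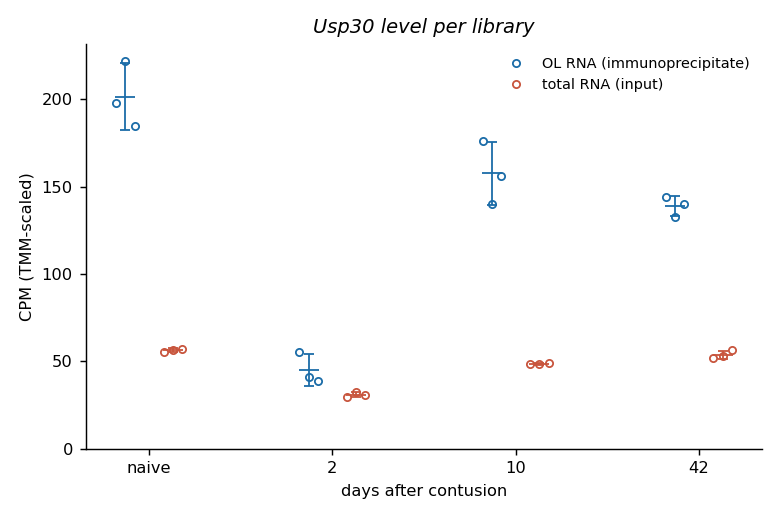
Usp30 level in CPM scaled with TMM (y axis, linear from 0) by condition (x axis, days after contusion). Open circles are single libraries, blue for OL RNA and red for total RNA, and bars are the mean ± SD of n = 3; OL libraries of dpi 2 sit at 38.6 to 55.4, under the 185 to 222 of naive OLs.

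The genes whose pattern over the 24 libraries was most like that of Usp30 were Tmem132b (Pearson r = 0.984 on log2 CPM), Clmn (0.974), Prkca (0.971), Tbc1d5 (0.964) and Man2a2 (0.963). The points share the 8 groups, so r mainly follows the gap between OL and total RNA and the low level on dpi 2, and no test was made. Tmem132b, for example, was at 282 ± 54.0 CPM in naive OLs, 61.5 ± 5.73 on dpi 2, and 199.7 ± 17.3 and 167 ± 16.98 at the later times. None of the other 8 mitophagy genes was among these 5.

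Pink1 (ENSMUSG00000028756, chromosome 4, 138313409 to 138326307, minus strand) encodes the kinase that starts the ubiquitin route. Its OL level was 842, 807 and 797 CPM in naive tissue and 394, 546 and 439.9 CPM on dpi 2, a description with a log2 fold change of -0.83 ± 0.12. On dpi 10 it was 503, 640.4 and 587 CPM, still under every naive library (log2 fold change -0.50 ± 0.12, q = 0.0043, just short of the limit of 0.5 that a call asks for beside q under 0.05, and called lower in 13 of 34 alternatives), and on dpi 42 it was 755, 675 and 636 CPM. Total RNA moved the same way, from 566, 630.4 and 609 CPM to 302, 308 and 349 CPM on dpi 2 (log2 fold change -0.91 ± 0.12, q = 3.0e-06). It stayed at 363, 368 and 375 CPM on dpi 10 (-0.71 ± 0.12, q = 7.4e-05) and was at 536, 439.9 and 433 CPM on dpi 42 (-0.36 ± 0.12, q = 0.029, not called). The falls on dpi 2 and dpi 10 in total RNA were called in all 34 alternatives.

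Among the ubiquitin-binding adaptors, optineurin (Optn, ENSMUSG00000026672, chromosome 2, 5020642 to 5064051, minus strand) fell and came back. Its OL level was 78.1, 67.7 and 61.7 CPM in naive tissue and 41.0, 36.5 and 29.3 CPM on dpi 2, a log2 difference of -0.96 given as a description. On dpi 10 it was 99.1, 82.9 and 82.3 CPM, above every naive library, and on dpi 42 it was 76.1, 58.0 and 65.0 CPM. Neither time passed the test against naive OLs (log2 fold changes 0.35 ± 0.14, q = 0.083, and -0.06 ± 0.14, q = 0.82). From dpi 2 to dpi 10 OL Optn rose 2.47-fold (log2 fold change 1.31 ± 0.14, q = 8.0e-07), in all 34 alternatives. The dpi 2 libraries of that comparison are also those of the choice of Usp30, although Optn was not chosen on them. In total RNA Optn went from 33.7, 34.5 and 32.99 CPM to 26.4, 20.6 and 19.9 CPM on dpi 2 (log2 fold change -0.60 ± 0.14, q = 0.0016). That q stayed under 0.05 in all 34 alternatives, but the size passed 0.5 in 19 of them.

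Sqstm1 (ENSMUSG00000015837, chromosome 11, 50199366 to 50210827, minus strand), which encodes the adaptor p62, changed by less than the size of a call in every comparison with naive tissue. OL libraries held 828, 905 and 741 CPM in naive tissue and 681, 697 and 641 on dpi 2. They held 911, 858 and 865 by dpi 10 and 1053, 951 and 1030 by dpi 42. The dpi 42 libraries lay above every naive one (log2 fold change 0.29 ± 0.08, q = 0.0063, not called for its size), and with an offset for gene length and GC content that value turned to -0.08. Without the naive OL library rich in astrocyte and Schwann cell markers it was 0.16 (q = 0.13). Total RNA held 512, 518 and 525 CPM in naive tissue, then 453, 419 and 458, 423, 424 and 437, and 498, 471 and 449.6 at the 3 times. It was lower than naive on dpi 2 (-0.23 ± 0.08, q = 0.028) and dpi 10 (-0.28 ± 0.08, q = 0.0094), both under the size of a call, with q under 0.05 in 13 and 19 of 34 alternatives. Without that naive OL library these values were -0.08 (q = 0.44) and -0.16 (q = 0.11). That library is no part of the total RNA comparisons, and leaving it out reaches them only through the shared scaling and spread. Leaving out any other OL library changes the reference of the scaling too. Without both libraries of dpi 2 pool 2 the dpi 2 value was -0.19 (q = 0.12).

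Tax1bp1 (ENSMUSG00000004535, chromosome 6, 52713729 to 52766780, plus strand), an adaptor that brings cargo to the forming autophagosome, was lower in OLs at all 3 times. Its OL libraries held 302, 304 and 269 CPM in naive tissue and 212, 176 and 202 on dpi 2. Later values were 184, 193 and 187 at dpi 10 and 151, 179 and 168 at dpi 42. No injured library reached the naive range at any time. The OL fall was called on dpi 10 (log2 fold change -0.63 ± 0.09, q = 4.6e-05) and dpi 42 (-0.81 ± 0.09, q = 1.5e-06), and each call held in 33 of 34 alternatives. The exception was the length and GC offset, under which the values were -0.42 and -0.30 with q still under 0.05. In total RNA the changes of -0.40, -0.41 and -0.36 (each ± 0.09, q = 0.0013, 0.0012 and 0.0057) were under the size of a call, and with the same offset those of dpi 2 and dpi 42 turned to 0.04 and 0.06.

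Among the membrane receptors, Bnip3, a receptor that hypoxia is known to induce, behaved differently in the RNA kinds on dpi 10. Total RNA held 80.2, 72.3 and 86.3 CPM of it in naive tissue and 40.9, 49.1 and 36.5 on dpi 2. At dpi 10 they were 34.6, 38.1 and 43.4, and at dpi 42 58.4, 35.4 and 38.8. Every injured library was under every naive one. The falls were -0.92 ± 0.18 (q = 2.9e-04), -1.04 ± 0.18 (q = 1.1e-04) and -0.85 ± 0.18 (q = 0.0014) on the log2 scale, and all 3 were called in all 34 alternatives. OL libraries held 52.4, 52.7 and 53.7 CPM in naive tissue and 41.0, 49.5 and 29.5 on dpi 2. Dpi 10 libraries had 55.5, 58.9 and 51.8 and dpi 42 libraries 56.6, 46.6 and 50.8. The dpi 2 OL libraries also lay below every naive one (log2 fold change -0.40 ± 0.18), and the OL change there exceeded that of total RNA by 0.51 ± 0.25. Both values are descriptions. On dpi 10 and dpi 42 the OL libraries overlapped the naive ones and did not pass the test.

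The difference between the OL and total RNA changes of Bnip3 was tested directly. On dpi 10 it was 1.11 ± 0.25 log2 units (q = 0.0084), with OL libraries overlapping the naive ones and total RNA 2.06-fold lower, and it was called in all 34 alternatives, between 0.87 and 1.20. On dpi 42 it was 0.80 ± 0.25 (q = 0.051), and with tissue pools as a block 0.83 (q = 0.012), which passes. Bnip3 was lower in OL RNA than in total RNA in naive tissue (log2 ratio -0.59 ± 0.18, q = 0.0071) and higher on dpi 10 (0.52 ± 0.18, q = 0.017). Both calls were close to the limit: the naive one was made in 20 of 34 alternatives, leaving out any 1 of the 12 OL libraries, naive or injured, gave -0.44 to -0.42 and ended it, and the dpi 10 one was made in 29 of 34 and turned to -0.06 with library sizes alone. The neuron markers, which fell in total RNA, are given above, and their part in this gene's values was not tested.

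Bnip3l (ENSMUSG00000022051, chromosome 14, 66985239 to 67008877, minus strand) encodes NIX, the receptor that clears mitochondria from maturing red blood cells. Its OL libraries held 465, 444 and 333 CPM in naive tissue and 242, 277 and 212 on dpi 2. By dpi 10 the values were 469, 432 and 458 and by dpi 42 382, 340.0 and 416. All dpi 2 libraries lay below all others. The dpi 2 difference, a description, was -0.76, and the rise from dpi 2 to dpi 10 was 1.86-fold (log2 0.89 ± 0.12, q = 1.3e-05), called in all 34 alternatives. Total RNA held 145, 129 and 121 CPM in naive tissue and 89.8, 97.7 and 83.7 on dpi 2 (log2 fold change -0.54 ± 0.12, q = 0.0010), a fall whose q stayed under 0.05 in all 34 alternatives and whose size passed 0.5 in 17.

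Fundc1 (ENSMUSG00000025040, chromosome X, 17556564 to 17572325, minus strand), another receptor linked to low oxygen, overlapped the naive OL range at all 3 times and fell in total RNA. OL means were 38.6 ± 5.21 CPM (SD) in naive tissue, 34.1 ± 1.69 on dpi 2, 37.3 ± 3.07 on dpi 10 and 36.4 ± 2.91 on dpi 42, with overlapping libraries throughout. Total RNA held 80.4, 72.8 and 76.0 CPM in naive tissue, 46.9, 39.0 and 45.7 on dpi 2, and 58.5, 45.7 and 53.9 on dpi 10. The total RNA falls were -0.80 ± 0.12 (q = 2.5e-05) on dpi 2, called in all 34 alternatives, and -0.54 ± 0.12 (q = 0.0018) on dpi 10, called in 15 of 34 with q under 0.05 in all. The dpi 2 difference between OL and total RNA changes, 0.62 log2 units, is a description, and it was 0.32 without the naive OL library rich in astrocyte and Schwann cell markers.

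Mfn2 (ENSMUSG00000029020, chromosome 4, 147873599 to 147904704, minus strand), a mitofusin of the outer membrane that fuses mitochondria and is itself a substrate of PINK1 and Parkin, was below naive at all 3 times in both RNA kinds. In total RNA it went from 239, 255 and 245 CPM to 151, 132 and 147 on dpi 2. Dpi 10 libraries were at 147, 127 and 139.0 and dpi 42 libraries at 189, 176 and 153. Every injured library lay below every naive one. The log2 fold changes were -0.78 ± 0.10 (q = 1.7e-06), -0.84 ± 0.10 (q = 1.0e-06) and -0.51 ± 0.09 (q = 5.0e-04), where the last was called in 15 of 34 alternatives and the others in all. OL libraries held 204, 200.4 and 217 CPM in naive tissue and 154, 160.3 and 146 on dpi 2. The later libraries held 154, 157 and 126 at dpi 10 and 173, 159 and 160.0 at dpi 42. The OL fall was called on dpi 10 (-0.51 ± 0.10, q = 7.3e-04, in 28 of 34 alternatives) and was -0.33 ± 0.09 (q = 0.0095) on dpi 42.

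**Figure D2:**
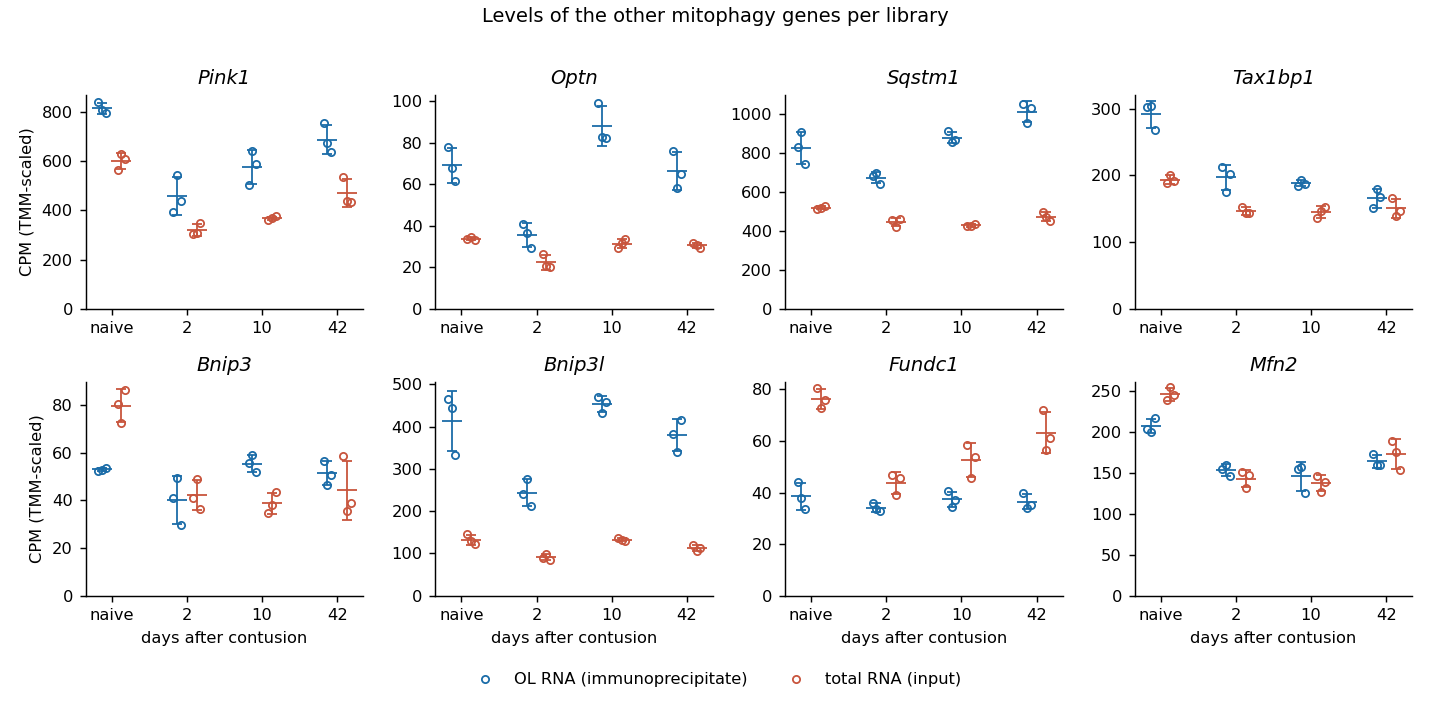
Levels of the other 8 genes in CPM scaled with TMM (y axes, linear from 0, each with its own range) by days after contusion (x axis). Circles are single libraries, blue for OL RNA and red for total RNA, with the mean ± SD of n = 3; Bnip3 shows total RNA falling from 72.3 to 86.3 in naive tissue to 34.6 to 43.4 on dpi 10 while OL RNA stays at 51.8 to 58.9.

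Taking the 9 genes as a list, 5 were past the limits of a call and lower in OL RNA on dpi 2, which the choice of Usp30 used, and 8 had all 3 OL libraries below all naive ones. Of all tested genes 16.4% were called lower in that comparison and 20.6% did not overlap below. In total RNA 7 of 9 were called lower on dpi 2, against 17% of all genes, and all 9 did not overlap below, against 35.8%. The median log2 fold change of the 9 genes in total RNA was -0.78 on dpi 2, -0.41 on dpi 10 and -0.27 on dpi 42, beside -0.10, -0.10 and -0.08 over all tested genes. In total RNA 4 were called lower on dpi 10 (Pink1, Bnip3, Fundc1 and Mfn2, against 13.3%) and 2 on dpi 42 (Bnip3 and Mfn2, against 7.76%). None of the 9 was called higher than in naive tissue in either RNA kind. Of all genes 14.3%, 12.4% and 9.15% were in total RNA at the 3 times, and 15.9%, 8.55% and 13.7% in OL RNA.

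In OL RNA fewer of the 9 were past the limits at the later times. On dpi 10 Tax1bp1 and Mfn2 were called lower, 2 of 9 against 5.55% of all genes, and the median was -0.05. On dpi 42 Tax1bp1 was called lower, and Usp30 passed the same limits as a description, 2 of 9 against 13%, with a median of -0.13. From dpi 2 to dpi 10, 3 of 9 were past the limits and higher in OL RNA (Usp30, described only, Bnip3l and Optn), against 9.55%. From dpi 10 to dpi 42 none of the 9 was called by edgeR or DESeq2, while 5.02% of all genes were called by edgeR in either direction, and the number of the 9 at an unadjusted p under 0.05 was 4 with edgeR and 5 with DESeq2.

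**Figure D3:**
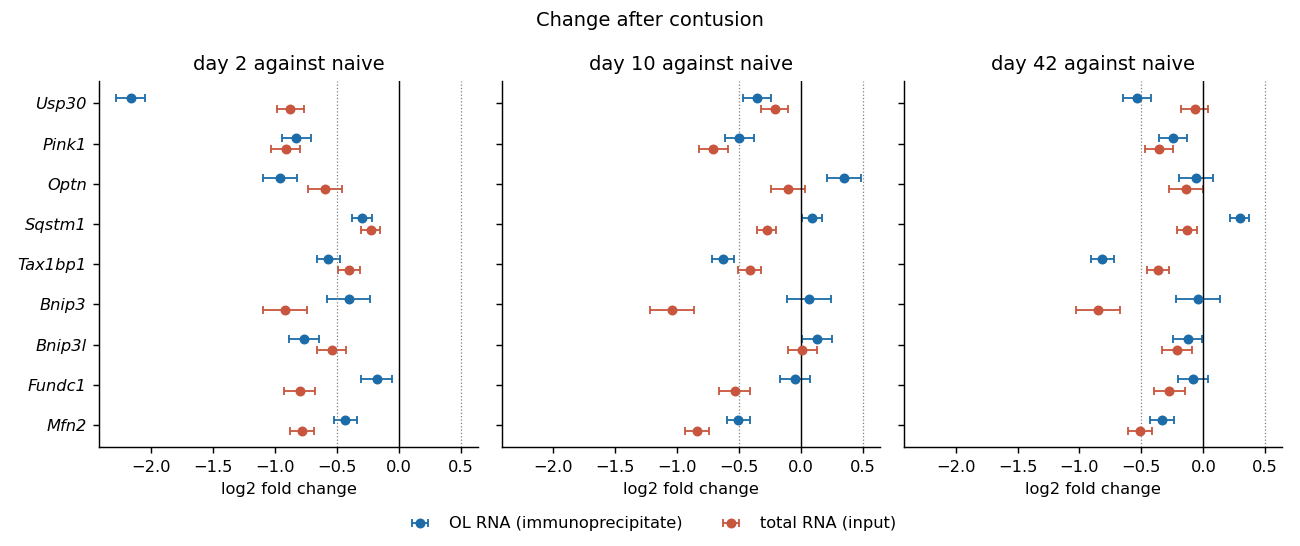
Log2 fold change against naive tissue (x axes) of the 9 genes (rows) on days 2, 10 and 42, in OL RNA (blue) and total RNA (red). Points are estimates from n = 3 libraries a group, bars the standard error, and dotted lines the limit of 0.5; Usp30 in OL RNA on day 2 lies at -2.16, outside the -1.04 to 0.35 that holds every other point.

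The 9 genes differed in how far they belonged to OLs. Naive OL RNA was above total RNA for Bnip3l (log2 1.65 ± 0.12, q = 1.7e-10), Optn (1.04 ± 0.14, q = 1.3e-06), Sqstm1 (0.67 ± 0.08, q = 2.3e-07) and Tax1bp1 (0.59 ± 0.09, q = 9.2e-06), and below it for Fundc1 (-0.99 ± 0.12, q = 5.7e-07) and Bnip3. With Usp30 as a description, 5 of 9 were higher, where 21.7% of all genes were, and 2 lower, where 28.6% were. Bnip3l, Optn and Sqstm1 were called OL-enriched in every condition, between 1.43 and 1.77, 0.67 and 1.49, and 0.60 and 1.10 on the log2 scale. Of the 9 genes 5 were called higher in OL RNA on dpi 2, 6 on dpi 10 and 5 on dpi 42, Usp30 included, against 20.5%, 21.2% and 21.1% of all genes. Fundc1 was called lower on dpi 42, against 27%. Pink1 passed after SCI with 0.52, 0.65 and 0.55, close to the limit. Library sizes alone, which leave the whole OL group lower, took the dpi 2 enrichment of Usp30 to -0.03 and of Pink1 to -0.05. Under that scaling the median over all genes moved from -0.27 to -0.78 in naive tissue.

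Per kb of exon sequence, Pink1 (305 CPM per kb), Sqstm1 (246) and Bnip3l (107) were the highest of the 9 in naive OLs, followed by Mfn2 (39.9), Usp30 (33.2), Tax1bp1 (29.2), Bnip3 (23.4), Optn (18.4) and Fundc1 (16.4). In naive total RNA Usp30 was at 9.32 CPM per kb, the lowest but for Optn at 8.99. Usp30 had the third highest OL enrichment of the 49 USP family genes in naive tissue, a description, since the naive OL values were part of its choice.

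**Figure D4:**
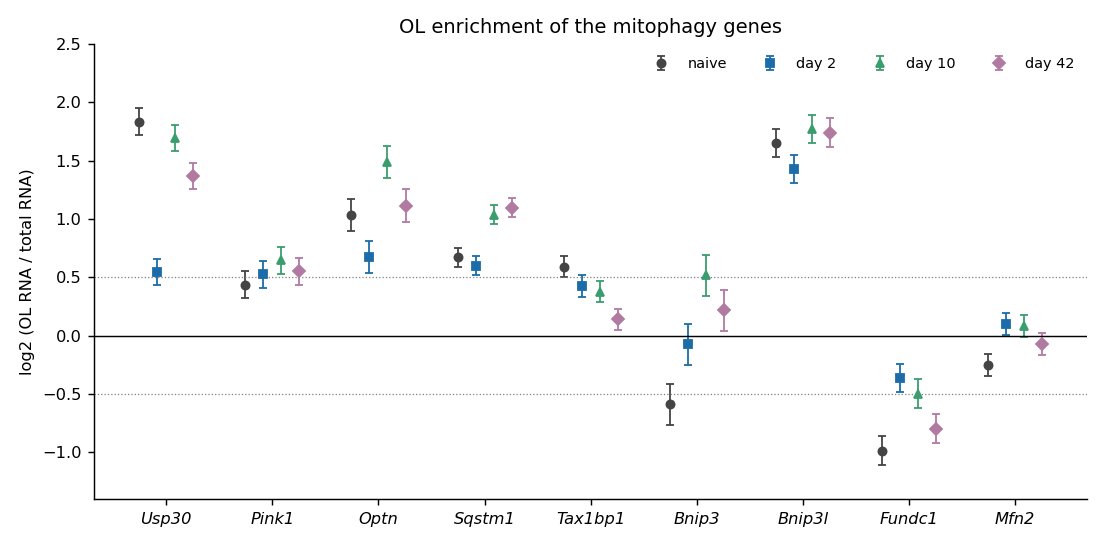
OL enrichment, the log2 ratio of OL RNA to total RNA (y axis), for the 9 genes (x axis) in naive tissue and on days 2, 10 and 42. Points are estimates from n = 3 libraries a group, bars the standard error and dotted lines the limit of 0.5; Usp30 stands at 1.83, 0.55, 1.69 and 1.37, and Fundc1 lies below 0 in all 4 conditions.

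The difference of OL and total RNA changes was tested for each of the 9 genes except Usp30. On dpi 10 Bnip3 was called, 1 of the 8 tested against 7.21% of all genes, and Sqstm1 had q under 0.05 at a smaller size (0.37 ± 0.11, q = 0.047), which was 0.17 (q = 0.41) without the naive OL library rich in astrocyte and Schwann cell markers and had q = 0.076 with tissue pools as a block. Fundc1 was at 0.49 ± 0.17 (q = 0.095) on dpi 10 and was called with that block, at 0.50 (q = 0.042). On dpi 42 none of the 8 was called by edgeR, where 7.46% of all genes were and 3 of the 8 had an unadjusted p under 0.05, and DESeq2 called 1, Bnip3. At that time Sqstm1 (0.43 ± 0.11, q = 0.020) and Tax1bp1 (-0.45 ± 0.13, q = 0.034) had q under 0.05 at less than the size of a call. Without that naive library Sqstm1 was at 0.20 (q = 0.26) and Tax1bp1 at -0.66 (q = 0.0036), and with the block Tax1bp1 had q = 0.066. On dpi 2, where the values are a description, Usp30 fell by 1.29 log2 units more in OL RNA than in total RNA.

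Beyond the 9 genes, 95 genes of the surrounding pathway were examined in 7 lists, and all 95 were tested. In OL RNA 15 rose and 25 fell on dpi 2 (15.9% and 16.4% of all genes), 1 rose and 17 fell on dpi 10 (8.55% and 5.55%), and 8 rose and 22 fell on dpi 42 (13.7% and 13%). In total RNA 37, 35 and 16 of the 95 fell at the 3 times (17%, 13.3% and 7.76% of all genes), and 6, 5 and 3 rose (14.3%, 12.4% and 9.15%).

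In the list of genes around PINK1 and Parkin, 3 of 15 rose and 4 fell in OL RNA on dpi 2. Of all genes 15.9% rose and 16.4% fell there. Tomm7, the small subunit of the outer membrane translocase that holds PINK1 at the surface, rose (log2 fold change 1.44 ± 0.16, q = 3.9e-07), as did Usp35 (1.34 ± 0.19, q = 7.8e-06), another deubiquitinase. Fbxo7, which helps recruit Parkin, fell (-1.45 ± 0.14, q = 6.8e-08), as did Usp8 (-1.04 ± 0.13, q = 1.6e-06), a deubiquitinase that acts on Parkin. Tomm7 (1.13), Usp35 (0.74) and Usp8 (-0.95) were also called on dpi 42, as was the ubiquitin ligase Huwe1 (-0.90), and on dpi 10 Usp35 (0.96), Fbxo7 (-0.59) and Ambra1 (-0.52) were. The dpi 42 call of Usp35 was lost without the dpi 42 OL library of pool 1 (0.46, q = 0.068), and that of Ambra1 without naive OL pool 2 or 3 or dpi 10 OL pool 2 or 3 (-0.51 to -0.47). Usp35 and Usp30, deubiquitinases of the same route, thus lay on opposite sides of naive OLs on dpi 2.

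Of the outer membrane import and porin genes, 5 of 13 rose and none fell in OL RNA on dpi 2 (15.9% and 16.4% of all genes). Among the 5 were Tomm6 (1.54 ± 0.41, q = 0.0045) and Tomm5 (1.36 ± 0.14, q = 2.4e-07). On dpi 10 none of the 13 was called, where 8.55% of all genes rose and 5.55% fell. On dpi 42 Tomm6 (1.19) and Tomm5 (0.84) were higher again, where 13.7% of all genes rose. At that time Tomm6 did not pass without naive OL pool 2 or 3 or dpi 42 OL pool 1 or 3 (0.97 to 1.14, q = 0.066 to 0.13). Of 6 further membrane receptors only Fundc2 was called in OL RNA against naive tissue, on dpi 2 (0.69 ± 0.17, q = 0.0021).

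Of the genes listed with the adaptors (Nbr1, Calcoco1, Tbk1, Tollip and Wdfy3) and of the autophagosome core genes, more fell than rose in OL RNA at each time. Of all genes 16.4%, 5.55% and 13% fell there at the 3 times, and 15.9%, 8.55% and 13.7% rose. On dpi 2, 4 of the 5 genes of the adaptor list fell, with Calcoco1 (-0.97 ± 0.10, q = 1.9e-07) and Wdfy3 (-0.92 ± 0.15, q = 3.3e-05) lowest. On dpi 10 and dpi 42 Wdfy3 (-0.52 and -0.70) and Nbr1 (-0.52 and -0.56) were the 2 called. On dpi 10 both were near the limit, and neither was called without naive OL pool 1, naive OL pool 2 or dpi 10 OL pool 3, nor Wdfy3 without dpi 10 OL pool 2 (-0.50 to -0.44 for Wdfy3 and -0.49 to -0.45 for Nbr1). Of 30 autophagosome core genes 4 rose and 13 fell on dpi 2. The lipid kinase Pik3c3 (-1.13 ± 0.14, q = 1.6e-06) and the lipid transfer protein gene Atg2b (-0.93 ± 0.16, q = 1.0e-04) were lowest, while Becn1, a partner of that kinase (0.83 ± 0.16, q = 2.4e-04), and Gabarap, of the family that coats the autophagosome (0.67 ± 0.08, q = 2.5e-06), were highest. Without the OL library of dpi 2 pool 2 Becn1 was at 0.52 (q = 0.0080). On dpi 10 none of the 30 rose and 8 fell, with Atg2b (-0.78) and Atg4c (-0.63) lowest, where Atg4c did not pass without naive OL pool 1 or 2 or dpi 10 OL pool 2 or 3 (-0.64 to -0.49, q = 0.066 to 0.13). On dpi 42, 2 rose, Map1lc3a (0.74) and Gabarap (0.73), and 10 fell, with Atg2b (-0.94) and Atg2a (-0.90) lowest. In total RNA 4, 2 and 1 of the 5 genes of the adaptor list fell at the 3 times. So did 12, 12 and 4 of the 30 core genes, where 17%, 13.3% and 7.76% of all genes did. On dpi 2 the median difference of OL and total RNA changes was -0.09 for the adaptor list and 0.23 for the core genes. Over all tested genes it was 0.06.

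Among 15 genes of mitochondrial fission, fusion and transport, 1 rose and 3 fell in OL RNA on dpi 2 (15.9% and 16.4% of all genes). In total RNA 9, 10 and 8 of the 15 fell at the 3 times (17%, 13.3% and 7.76% of all genes). Fis1, an outer membrane fission factor, was higher in OLs on dpi 2 (0.70 ± 0.12, q = 5.6e-05) and dpi 42 (0.80 ± 0.12, q = 2.4e-05), and was at 0.49 (q = 0.0016) on dpi 2 without the OL library of pool 2. Dnm1l, the fission GTPase DRP1, was lower at all 3 times (-0.61, -0.63 and -0.88), and so was Trak2, a motor adaptor (-0.69, -0.59 and -0.84). Mfn1, the partner of Mfn2, was lower on dpi 10 (-0.83 ± 0.13, q = 8.8e-05) and dpi 42 (-0.62 ± 0.13, q = 6.9e-04), and was at -0.47 on dpi 2. Of 11 transcription factors and cofactors of this pathway, Atf4 rose (1.60 ± 0.13, q = 6.8e-09) and Foxo3 fell (-0.89 ± 0.11, q = 3.0e-06) on dpi 2. The hypoxia factor Hif1a was lower on dpi 10 (-0.61 ± 0.17, q = 0.017) and dpi 42 (-0.999 ± 0.18, q = 1.7e-04), Epas1 on dpi 10 (-1.07 ± 0.35, q = 0.038), and Ppargc1a, a driver of mitochondrial biogenesis, on dpi 42 (-1.54 ± 0.47, q = 0.015). The calls of Epas1 and Ppargc1a, and that of Hif1a on dpi 10, rested on the naive OL library rich in astrocyte and Schwann cell markers, which held 225 CPM of Epas1 against 68.2 and 70.5 in the other naive OL libraries and 48.6 to 73.4 on dpi 10. Without it Epas1 was at -0.27 (q = 0.52), Hif1a on dpi 10 at -0.40 (q = 0.11) and Ppargc1a at -0.73 (q = 0.18), and none passed. Without dpi 10 OL pool 3 Epas1 (-0.999, q = 0.12) and Hif1a (-0.51, q = 0.090) did not pass either, nor did Epas1 without dpi 10 OL pool 1 (-0.96, q = 0.12).

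**Figure D5:**
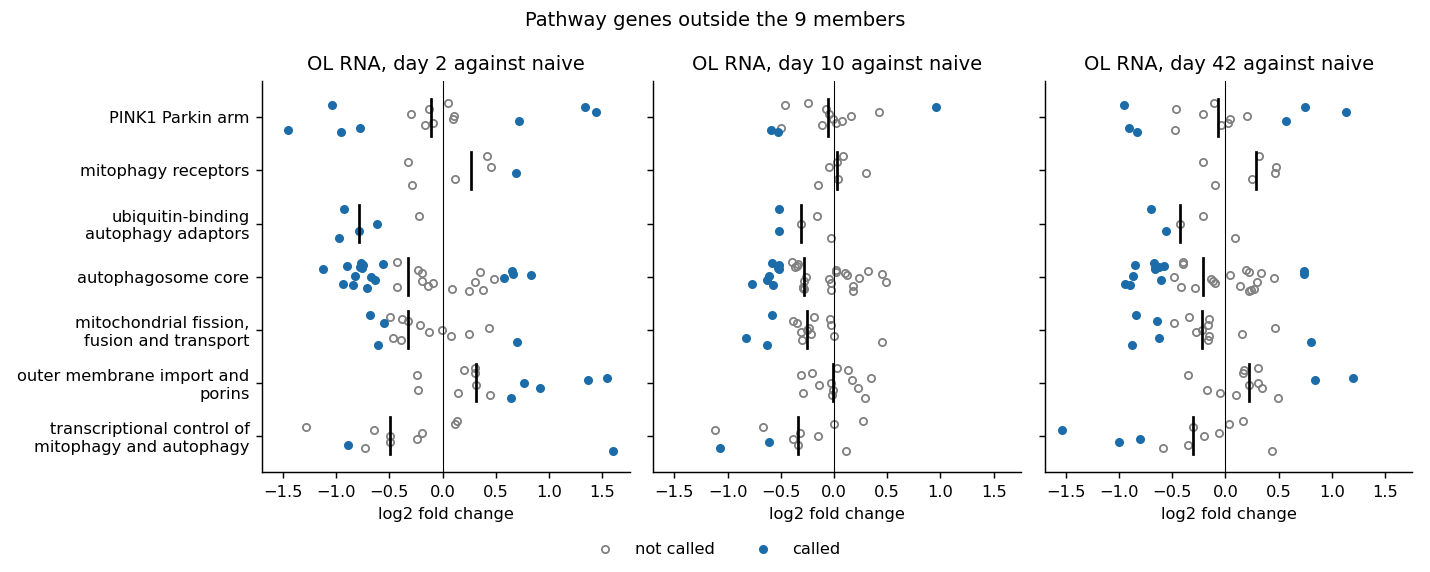
Log2 fold change in OL RNA against naive tissue (x axes) on days 2, 10 and 42 for the 95 pathway genes outside the 9, by list (rows). Each circle is 1 gene, filled where called, and vertical strokes are list medians; on day 2 the filled genes of the outer membrane import list all lie above 0 and those of the adaptor list all below.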

How the data were processed

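RNA was sequenced from 24 libraries, OL RNA and total RNA of 3 pools of 2 mice in each of 4 conditions. The authors aligned reads with STAR to mm10 with GENCODE M21 and deposited raw counts per gene made with HTSeq 0.10.0, after quality checks with FastQC 0.10.1; the strand setting is not given in the sources used here. From those counts, edgeR 4.0.16 (R 4.3.3, limma 3.58.1) fitted 1 mean per group with TMM scaling and the quasi-likelihood F test, over the 17167 genes whose counts summed to 10 or more over all libraries. A call needs a Benjamini-Hochberg q under 0.05 over all tested genes and a log2 fold change beyond 0.5. CPM per library are TMM scaled. Totals of 25840127 to 32987841 counts per library set the precision, and p-values measure the spread between pools.

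Comparisons were each time against naive tissue within an RNA kind, OL against total RNA, the difference of both changes, and successive OL times; those against naive share the naive libraries. OL and total RNA of a pool come from the same tissue. Deviations of same-pool libraries from their group means correlated at 0.041 to 0.137 in naive tissue, 0.088 to 0.108 on dpi 2, 0.025 to 0.063 on dpi 10 and -0.011 to 0.020 on dpi 42, where pools were matched by column names alone. Alternatives were other scalings, filters, DESeq2 1.42.0, only the groups compared, a block, a length and GC offset (mgcv 1.9.3), and leaving out libraries. The block was the replicate number for changes within an RNA kind. For OL enrichment and the difference of changes it was the tissue pool. The fit was tested on simulated data.

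The members and lists were chosen with earlier results of these data known. Named were the 9 genes, at most the 2 highest and 2 lowest called genes of each list and time, and the 5 genes most correlated with Usp30; further values of Trak2 and Mfn1, Prickle1, Fnbp1, Arnt2, the named USP genes and the overlapping genes were given after their values were seen. Sequences are from RefSeq. The promoter that drives the Cre is not reported here.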

Additional observations from a re-analysis of the deposited data

Results flagged for a closer look

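For Bnip3, Sqstm1 and Tax1bp1 the difference of the OL and total RNA changes had q under 0.05 on dpi 10 or dpi 42. The q values are from edgeR's test of the difference itself, with Benjamini-Hochberg adjustment. Only Bnip3 was called, on dpi 10, where 7.21% of all genes were. Bnip3 differed on dpi 10 by 1.11 log2 units (q = 0.0084), with OL RNA overlapping naive libraries and total RNA below all of them. Sqstm1 differed by 0.37 on dpi 10 (q = 0.047) and 0.43 on dpi 42 (q = 0.020), and Tax1bp1 by -0.45 on dpi 42 (q = 0.034). These values were under the size of a call. With tissue pools as a block, q was 0.076 and 0.040 for Sqstm1 and 0.066 for Tax1bp1. The Sqstm1 values were 0.17 and 0.20 without the naive OL library of pool 3, which carries more astrocyte and Schwann cell marker RNA than the other naive OL libraries, and neither then passed (q = 0.41 and 0.26). The part of these markers was not tested.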

How the results depend on the processing

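Each of the 24 libraries was left out in turn for every comparison, also for those that do not use it. Such a refit reaches a comparison only through the shared spread and scaling, so many values could hardly change. Of the values recomputed with 1 library left out, 1635 stayed the same, 84 were weaker, 27 stronger and 6 moved. Under the other alternatives these numbers were 656, 42, 15 and 11, with 6 reversed. A tested value stayed the same if it kept its direction and side of the threshold. A value given as a description did if it shifted by less than a set multiple of its standard error, and a larger shift counts as moved. With library sizes alone the OL enrichment of Usp30 and Pink1 on dpi 2 reversed to -0.0250 and -0.0482 and that of Bnip3 on dpi 10 to -0.0607. With the length and GC offset Sqstm1 in OL RNA on dpi 42 reversed to -0.0773, and Tax1bp1 in total RNA to 0.0360 on dpi 2 and 0.0603 on dpi 42. The causes were not tested.

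The number of the 9 genes called in OL RNA fell from 2 to 1 on dpi 10 with DESeq2 size factors, library sizes alone, the DESeq2 Wald test and only the groups compared, and from 2 to 1 on dpi 42 with library sizes alone and only the groups compared. In total RNA on dpi 42 it fell from 2 to 1 with those 4 settings and with TMM on a total RNA reference. For the difference of changes, Usp30 counted, it went from 2 to 1 on dpi 2 without both libraries of pool 2. The length and GC offset did the same. On dpi 10 it went from 1 to 2 with the tissue pool block. On dpi 42 it went from 0 to 1 with library sizes alone, filterByExpr, the DESeq2 Wald test and the tissue pool block. The same change came without both libraries of dpi 2 pool 2, and the number went to 2 with the total RNA reference. For OL enrichment on dpi 2 it went from 5 to 3 with DESeq2 size factors, library sizes alone and the Wald test, and to 2 with the total RNA reference. Leaving out 1 library gave 1 to 2 in total RNA on dpi 42, 1 to 3, and 0 to 2, for the difference on dpi 2 and dpi 42, 3 to 5 for OL enrichment on dpi 2, and 3 to 5 from dpi 2 to dpi 10 in OL RNA. Leaving out any OL library changed the TMM reference library from the dpi 2 OL library of pool 3 to the dpi 42 total library of pool 1, so such settings also change the scaling.

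Over all genes, fitting only the groups compared moved the calls in OL RNA from 5537 to 3657 on dpi 2, 2419 to 1607 on dpi 10 and 4588 to 2834 on dpi 42, in the difference on dpi 10 from 1238 to 1927, and from dpi 10 to dpi 42 from 861 to 60. The replicate block, a fit that also lacks both dpi 42 libraries of pool 1 because they carry no replicate number, moved the last to 310; the part of the block alone was not tested. The length and GC offset moved it to 357, and that offset moved the difference on dpi 42 from 1280 to 805. The replicate numbers do not pair injured with naive pools. With the replicate block Pink1 in OL RNA on dpi 10 went from -0.50 to -0.51 and was called, in a fit that also lacked those 2 libraries. The difference of changes was instead blocked by tissue pool, with all 24 libraries. There Fundc1 on dpi 10 went from 0.49 to 0.50 and was called. Counts limit precision only for low genes, and the least of the 9 had 657 counts in a library.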
